A study of Mus musculus with 37 samples.

Results

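Transcripts of 7 genes that make, load, clear and respond to the inhibitory transmitter GABA were measured in temporal lobes of Wfs1 KO and WT mice. The genes were Gad1, Gad2, Slc32a1, Slc6a11, Abat, Slc12a5 and Gphn, 7 of the 18193 genes with a probe set of 1 symbol. Members were taken by symbol, and each was read on its brightest probe set, by the mean over all 37 arrays. Their other probe sets served as a check, which gave 17 probe sets in all. Every member passed the filter on low values on its brightest probe set, so all 7 were tested among 13078 genes.

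The groups were 9 C57 KO, 9 C57 WT, 10 129 KO and 9 129 WT arrays of Affymetrix mouse expression chips. KO stands for WFS1 KO in the labels, a genotype lacking Wfs1, which encodes an endoplasmic reticulum membrane protein, and WT for the wild type of the same strain. The labels write the strains as C57 and 129SV, and the series design as C57B6 and 129S6. Age, sex, litter and the construction of the KO allele are not given in the sources used here, and no label ties an array to a single animal, so the tests reflect spread among arrays, some of which could be technical. Wfs1 itself had a log2 signal of 3.03 ± 0.26 in C57 KO and 9.32 ± 0.17 in C57 WT (SD, n = 9 each). It had 3.11 ± 0.28 in 129 KO (SD, n = 10) and 9.33 ± 0.12 in 129 WT (SD, n = 9).

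GABA is made from glutamate by 2 decarboxylases, GAD67 from Gad1 and GAD65 from Gad2. The vesicular transporter VGAT, from Slc32a1, loads it into synaptic vesicles. Released GABA is taken up again by plasma membrane transporters, among them GAT-3 from Slc6a11, which sits mainly on astrocytes, and is broken down by the transaminase from Abat. Slc12a5 encodes KCC2, the neuronal potassium chloride cotransporter that keeps chloride in the cell low enough for GABA to inhibit. Gphn encodes gephyrin, the scaffold that holds GABA-A and glycine receptors at inhibitory synapses. In whole tissue, fewer cells of a type and less RNA per cell cannot be told apart.

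Promoter sequences are shown for both decarboxylases, whose start regions differ in the motifs they hold, and for Slc6a11, the member that differed between KO groups. They come from RefSeq (GRCm38.p6), cover 250 bases before to 50 after a start and are all on the plus strand. Capitals mark matches, on either strand, to TATAAA (found in 13.6% of 32851 mouse promoters of the same length), GGGCGG (35.7%), CACGTG (7.15%) or TAATTA (5.29%), the 4 motifs searched. No overlap between matches occurs in the sequences shown.
Gad1, chr2:70561879-70562178: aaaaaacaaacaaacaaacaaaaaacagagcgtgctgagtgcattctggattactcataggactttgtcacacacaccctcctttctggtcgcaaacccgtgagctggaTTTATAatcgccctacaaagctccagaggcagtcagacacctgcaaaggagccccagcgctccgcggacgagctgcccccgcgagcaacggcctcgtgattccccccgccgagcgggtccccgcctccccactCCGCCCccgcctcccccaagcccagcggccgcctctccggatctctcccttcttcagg
Gad2, chr2:22622077-22622376: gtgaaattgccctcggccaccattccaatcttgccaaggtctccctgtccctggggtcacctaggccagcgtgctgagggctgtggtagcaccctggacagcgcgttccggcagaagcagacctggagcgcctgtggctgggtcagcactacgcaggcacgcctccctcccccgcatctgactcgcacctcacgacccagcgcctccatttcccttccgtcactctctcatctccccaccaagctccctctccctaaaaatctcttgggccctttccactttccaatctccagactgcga
Slc6a11, chr6:114130991-114131290: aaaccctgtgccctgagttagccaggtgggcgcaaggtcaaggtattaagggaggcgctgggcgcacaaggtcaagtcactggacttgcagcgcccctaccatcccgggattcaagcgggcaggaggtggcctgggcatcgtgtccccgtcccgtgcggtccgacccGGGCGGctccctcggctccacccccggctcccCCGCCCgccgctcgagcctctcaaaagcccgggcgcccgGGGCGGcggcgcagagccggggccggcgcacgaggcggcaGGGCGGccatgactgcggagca
Gad1 held 1 match to TATAAA and 1 to GGGCGG, Gad2 held 0 of any motif, and Slc6a11 held 4 matches to GGGCGG. The GC content of these windows was 60% for Gad1, 61.3% for Gad2 and 72.3% for Slc6a11, against a median of 52.7% over all promoters. Promoters were found for 6 of the 7 members, and Abat is named only. Gad1, Gad2, Slc32a1 and Slc12a5 lie on chromosome 2, Slc6a11 on chromosome 6, Gphn on chromosome 12 and Abat on chromosome 16, while Wfs1 lies on chromosome 5.

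Array quality was read from control probe sets and from marker genes. All 10 measured markers of excitatory cortical neurons passed the filter, while 4 of 5 cerebellum markers lay below it. All 14 measured markers of striatal medium spiny neurons and 11 of 12 of thalamus and hypothalamus passed too. Choroid plexus content was uneven by the mean signal of 4 markers. It was 7.87 in C57 WT array 34 (group median 5.08) and 7.31 in 129 WT array 72 (group median 5.27). The 3' minus 5' signal of the actin controls, which grows as RNA degrades, spanned 0.91 to 2.76 on the log2 scale, and was highest in 129 WT array 73 (2.76) and next in C57 KO array 10 (1.94). With group means taken out, the arrays also split into sets of 19 and 18, found by their values on 40 genes that are no members. Set 1 held the lower sample numbers of every group and set 2 the higher ones. The split was made from the values and is no grouping of the study. Array 59 of 129 KO had the lowest mean signal of 10 excitatory cortical neuron markers in its group, 7.16.

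**Figure D1:**
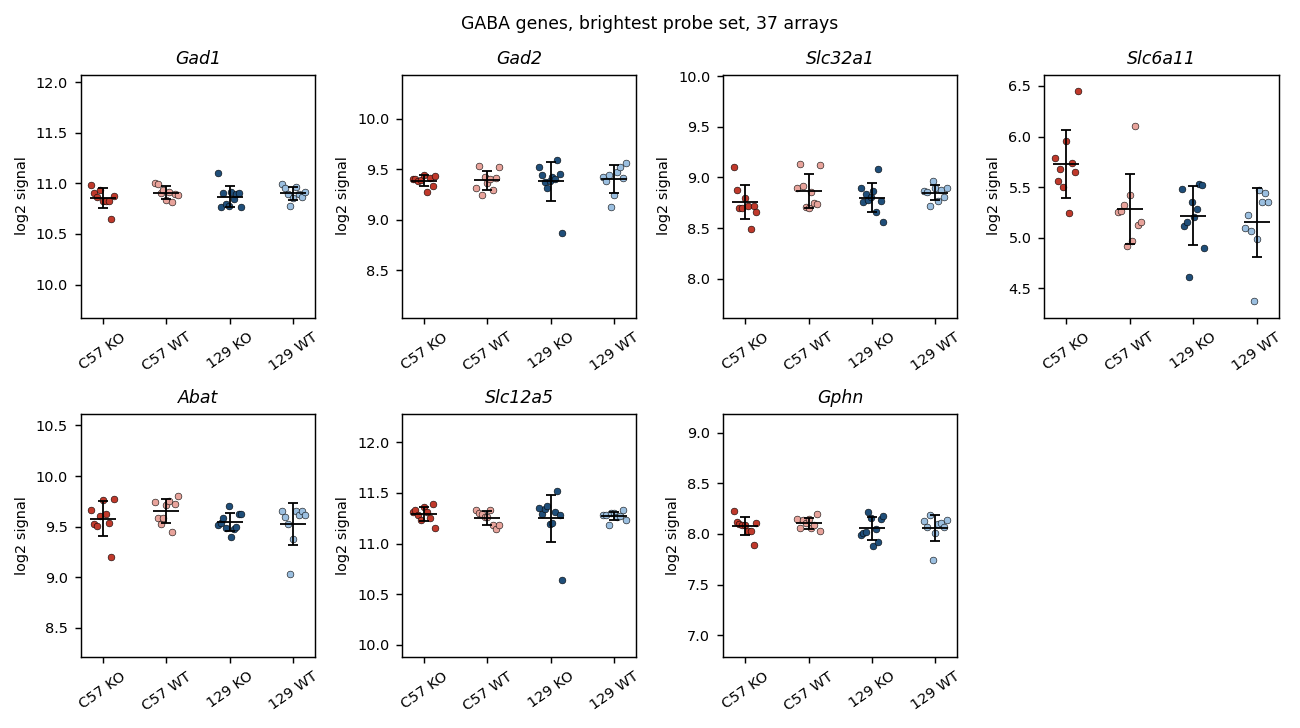
Log2 signal of each member on its brightest probe set in every array (points), with group means and SD (black bars), for 9 C57 KO, 9 C57 WT, 10 129 KO and 9 129 WT arrays. Each panel spans the same range of log2 units, levels cannot be compared between panels, and Slc6a11 has its highest group mean in C57 KO (5.73, against 5.28 in C57 WT).

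The decarboxylases came first in the order of the pathway, with the question whether loss of Wfs1 altered the transcripts for GABA synthesis. Gad1 had a lowest, median and highest log2 signal of 10.64, 10.86 and 10.98 in C57 KO, against 10.81, 10.91 and 11.00 in C57 WT. In 129 it had 10.77, 10.87 and 11.10 in KO, against 10.78, 10.90 and 10.99 in WT. The KO and WT groups overlapped in both strains. The KO minus WT difference of Gad1 was -0.05 in C57 (SE 0.05, limma adjusted p = 0.928), with -0.03 in 129 (SE 0.04, adjusted p = 1.00). Gad2 had 9.28, 9.40 and 9.44 in C57 KO, against 9.25, 9.41 and 9.53 in C57 WT. In 129 it had 8.88, 9.41 and 9.60 in KO, against 9.12, 9.42 and 9.56 in WT. The low value of 8.88 was array 59, and the next array of that group stood at 9.31. KO minus WT of Gad2 was 0.00 in C57 (SE 0.06, limma adjusted p = 0.996), with -0.02 in 129 (SE 0.06, adjusted p = 1.00).

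The vesicular transporter gene Slc32a1 had the most negative KO minus WT difference of the members in C57, and it did not pass. It had 8.50, 8.72 and 9.11 as lowest, median and highest log2 signal in C57 KO, against 8.70, 8.85 and 9.14 in C57 WT. In C57 KO, 4 of 9 arrays lay below every C57 WT array, and 2 of 9 lay above the C57 WT median. The difference was -0.12 (SE 0.07, limma adjusted p = 0.853, exact permutation p = 0.162, 2-sided). In 129 the values were 8.56, 8.79 and 9.08 in KO, against 8.72, 8.86 and 8.96 in WT, a difference of -0.05 (SE 0.07, adjusted p = 1.00). Medium spiny neurons of the striatum also use VGAT. Their 14 measured markers had a median difference of -0.37 in C57, and all 14 were negative. There 0 were called (0.107% of all genes), and 12 had an unadjusted p under 0.05 (6.37% of all genes). In 129 the median was -0.14, with 0 called (0.00765% of all genes), 0 unadjusted (2.13% of all genes) and all 14 negative. The mean signal of these markers ranged from 7.12 to 8.06 in C57 KO, against 7.33 to 8.38 in C57 WT. Across 37 arrays, after group means were removed, it correlated with Slc32a1 at Pearson r = 0.48 (permutation p = 0.00196, adjusted p = 0.0330 over 70 relations) and Spearman rho = 0.46 (permutation p = 0.00468, adjusted p = 0.109). Without the 2 farthest arrays r was 0.48, and within sets 1 and 2 it was 0.62 and 0.36. With the same markers Gad1 had r = 0.43 (permutation p = 0.00775, adjusted p = 0.0775) and rho = 0.44 (permutation p = 0.00640, adjusted p = 0.112). Gad2 had r = 0.16 and rho = 0.28 with them. The part of these markers in the Slc32a1 difference was not tested.

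Slc6a11, for the astrocytic uptake transporter GAT-3, was the 1 member with a called difference, between the KO groups. It had 5.25, 5.68 and 6.45 as lowest, median and highest log2 signal in C57 KO, against 4.92, 5.25 and 6.11 in C57 WT. In 129 it had 4.61, 5.25 and 5.53 in KO, against 4.37, 5.22 and 5.47 in WT. All C57 KO arrays but 1 lay above the C57 WT median, which is 8 of 9. Each strain's KO and WT ranges still overlapped. The highest C57 WT value was array 37, and the next in that group was 5.43.

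KO minus WT for Slc6a11 in C57 was 0.45 (SE 0.15, 95% confidence interval 0.15 to 0.74), a fold of 1.36. Its exact permutation p was 0.0133 (2-sided, 1 of 28 such tests on the members), but the limma adjusted p over all genes was 0.475, so it did not pass. In 129 the difference was 0.06 (SE 0.14, interval -0.22 to 0.35, adjusted p = 1.00). Over both strains it was 0.25 (SE 0.10, adjusted p = 0.914). The test of the difference between the KO effects, C57 minus 129, gave 0.38 (SE 0.20, interval -0.03 to 0.79, adjusted p = 0.999), so the strains were not shown to respond differently.

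Between the KO groups Slc6a11 was lower in 129. The mean was 5.22 ± 0.29 in 129 KO (SD, n = 10) and 5.73 ± 0.34 in C57 KO (SD, n = 9). The difference was -0.51 (SE 0.14, interval -0.80 to -0.23), a fold of 0.70, with a limma adjusted p = 0.0337 and an exact permutation p = 0.000996. In 129 KO, 5 of 10 arrays lay below every C57 KO array and 0 of 10 above the C57 KO median. Between the WT groups the means were 5.15 ± 0.34 in 129 WT and 5.28 ± 0.35 in C57 WT (SD, n = 9 each), a difference of -0.13 (SE 0.15, adjusted p = 0.852). The call was lost within set 1 (-0.55, adjusted p = 0.0730) and within set 2 (-0.48, adjusted p = 0.539), with 4 or 5 arrays a group. It was also lost without C57 KO array 1, 7 or 17 or without 129 KO array 51, 52, 53 or 59, where the adjusted p lay between 0.0524 and 0.0901.

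Astrocyte markers were set beside Slc6a11 because its transporter sits on those cells. Of 10 measured, all 10 had a lower mean in 129 KO than in C57 KO, with a median difference of -0.14, and 6 had an unadjusted p under 0.05, where 12.3% of all genes did. S100b, a calcium-binding protein of astrocytes, was the 1 of 10 called (-0.25, SE 0.05, limma adjusted p = 0.00528), where 3.06% of all genes were. The mean signal of the list ranged from 8.95 to 9.13 in 129 KO, against 9.13 to 9.26 in C57 KO. Across the 37 arrays, with group means removed, the list and Slc6a11 correlated at r = 0.11 (permutation p = 0.504, adjusted p = 0.784 over 70 relations) and rho = 0.22 (permutation p = 0.186, adjusted p = 0.482). Between the KO groups all 7 oligodendrocyte markers had a negative difference (median -0.11, 0 called beside 3.06% of all genes, 2 unadjusted beside 12.3%). So did 5 of 6 vessel markers (median -0.09), but only 1 of 14 striatal markers (median 0.17). Of all genes called between the KO groups, 282 were lower in 129 KO and 118 higher, so a lower value was not particular to astrocyte markers. Car8, the 1 cerebellum marker above the filter, was lower in 129 KO (-0.49, SE 0.12, limma adjusted p = 0.0155). Between the WT groups all 7 oligodendrocyte markers were also lower in 129 (median -0.19, 0 called beside 2.06% of all genes, 4 unadjusted beside 11.6%). There 7 of 10 astrocyte markers were lower in 129 (median -0.06, 0 called, 3 unadjusted), and Car8 differed by -0.20. The part of these markers in the strain difference was not tested. In KO minus WT within C57 the astrocyte markers had a median of 0.04, with 0 of 10 called (0.107% of all genes) and 1 unadjusted (6.37%).

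Abat, the enzyme that starts GABA breakdown, showed no called difference. It had 9.20, 9.61 and 9.78 as lowest, median and highest log2 signal in C57 KO, against 9.45, 9.71 and 9.80 in C57 WT. In 129 it had 9.40, 9.53 and 9.71 in KO, against 9.03, 9.61 and 9.66 in WT. The lowest C57 KO and 129 WT values were arrays 10 and 73, the pair with the largest actin difference. KO minus WT was -0.08 in C57 (SE 0.07, limma adjusted p = 0.936) and 0.02 in 129 (SE 0.07, adjusted p = 1.00). Between the WT groups Abat differed by -0.13, 129 minus C57 (SE 0.07, adjusted p = 0.524), and 0 of 9 129 WT arrays lay above the C57 WT median.

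On the receiving side of the synapse, the KCC2 gene Slc12a5 and the gephyrin gene Gphn had an SD within groups of 0.13 and 0.10. Slc12a5 had 11.16, 11.31 and 11.39 in C57 KO, against 11.15, 11.26 and 11.33 in C57 WT. In 129 it had 10.64, 11.30 and 11.52 in KO, against 11.19, 11.28 and 11.33 in WT. The value of 10.64 was array 59 again, with the next at 11.20. KO minus WT of Slc12a5 was 0.04 in C57 (SE 0.06, limma adjusted p = 0.977) and -0.02 in 129 (SE 0.06, adjusted p = 1.00), and 0.05 in 129 without array 59. Gphn had 7.89, 8.09 and 8.23 in C57 KO, against 8.03, 8.11 and 8.19 in C57 WT. In 129 it had 7.88, 8.03 and 8.22 in KO, against 7.75, 8.10 and 8.19 in WT. For Gphn the difference was -0.03 in C57 (SE 0.05, limma adjusted p = 0.980), with -0.01 in 129 (SE 0.05, adjusted p = 1.00).

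**Figure D2:**
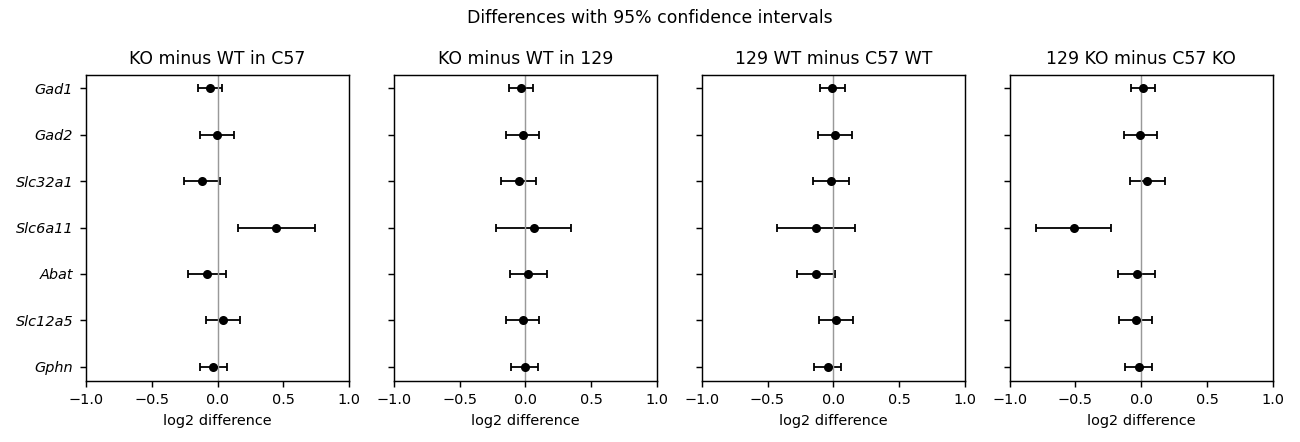
Limma log2 differences of the 7 members (points) with 95% confidence intervals (bars) in 4 panels, for the KO effect in each strain and for 129 minus C57 in each genotype. Every interval but those of Slc6a11 in C57 (0.15 to 0.74) and between KO groups (-0.80 to -0.23) includes 0.

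Counted together, 0 of the 7 members passed in C57, where 0.107% of all genes tested were called. The count was 0 of 7 in 129 (0.00765% of all genes), 0 of 7 over both strains (0.0229%), 0 of 7 for the difference of the KO effects (0.0153%) and 0 of 7 between WT groups (2.06%). Between KO groups it was 1 of 7, Slc6a11, against 3.06%. At an unadjusted p under 0.05 there was 1 member in C57 (6.37% of all genes), 0 in 129 (2.13%), 1 over both strains (4.95%), 0 for the difference of the KO effects (3.34%), 0 between WT groups (11.6%) and 1 between KO groups (12.3%), and each was Slc6a11. The median difference over the members was -0.03 in C57 and -0.02 in 129, beside 0.02 and 0.00 over all genes.

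For the other 6 members the intervals set bounds. In C57 their KO minus WT differences lay between -0.12 and 0.04 and their 95% intervals reached from -0.25 to 0.17, a fold between 0.839 and 1.12. In 129 the intervals reached from -0.18 to 0.16, a fold between 0.881 and 1.12. Between WT groups they reached from -0.27 to 0.15, a fold between 0.827 and 1.11, and between KO groups from -0.17 to 0.18, a fold between 0.886 and 1.13. These are intervals per gene, of array signal on its brightest probe set only.

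The other 10 probe sets of the members were read as a check, in a limma fit of every probe set with 1 symbol. Of these, 7 were tested and 3 lay below the filter. In that fit 0.0858% of 23321 probe sets were called in C57, 0.00429% in 129, 2.02% between WT groups and 3.01% between KO groups. Of the 7 tested, 0 were called in any of these comparisons, the lowest adjusted p was 0.206, and 1 had an unadjusted p under 0.05. That was the third probe set of Gphn between KO groups (-0.24, SE 0.09, limma unadjusted p = 0.0142), where the brightest differed by -0.02. In the fit of 1 probe set per gene, 12.3% of all genes had an unadjusted p under 0.05 in that comparison. Differences of the 7 probe sets ranged from -0.24 to 0.18. The second probe set of Slc6a11 had means from 2.28 to 2.39, below the filter at 3.60, and so gave no check on the brightest one.

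Second probe sets of Gad1 and Slc12a5 had larger correlations with RNA quality than the brightest ones, a difference that was not tested itself. Across the 37 arrays, with group means removed, 17 relations to the actin difference were computed. The second probe set of Gad1 had r = -0.92 (permutation p = 1e-05, the smallest possible, adjusted p = 2.83e-05) and rho = -0.86 (permutation p = 1e-05, adjusted p = 8.5e-05). Without arrays 73 and 10 its r was -0.84, and within sets 1 and 2 it was -0.94 and -0.91. On the brightest Gad1 probe set r was -0.25 (permutation p = 0.142, adjusted p = 0.186) and rho -0.04 (permutation p = 0.828, adjusted p = 0.880). The SD within groups was 0.39 on the second probe set and 0.08 on the brightest.

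Slc12a5 had a like pattern. Its second probe set had r = -0.85 (permutation p = 1e-05, adjusted p = 2.83e-05) and rho = -0.75 (permutation p = 2e-05, adjusted p = 8.5e-05), with r = -0.66 without arrays 73 and 10, and -0.94 and -0.68 within the sets. Its brightest had r = 0.28 (permutation p = 0.0710, adjusted p = 0.101) and rho = 0.32 (permutation p = 0.0530, adjusted p = 0.100). The SD within groups was 0.50 on the second and 0.13 on the brightest. Gphn moved with actin on its brightest probe set (r = -0.69, permutation p = 1e-05, adjusted p = 2.83e-05, rho = -0.46, permutation p = 0.00428, adjusted p = 0.0104) and on the next (r = -0.87, rho = -0.81, permutation p = 1e-05 for each, adjusted p = 2.83e-05 and 8.5e-05). Without arrays 73 and 10 the Gphn values of r were -0.41 and -0.75. Within sets 1 and 2 they were -0.80 and -0.79 on the brightest, and -0.91 and -0.82 on the next.

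Abat moved with actin on its brightest probe set, with r = -0.80 (permutation p = 1e-05, adjusted p = 2.83e-05) and rho = -0.64 (permutation p = 5e-05, adjusted p = 0.00017), and r = -0.59 without arrays 73 and 10. Within the sets it was -0.82 and -0.84. Slc32a1 moved the other way on its brightest probe set, with r = 0.41 (permutation p = 0.0132, adjusted p = 0.0320) and rho = 0.51 (permutation p = 0.00127, adjusted p = 0.00360), and r = 0.50 without the same arrays and 0.38 and 0.32 within the sets. Slc6a11 had r = -0.41 (permutation p = 0.0159, adjusted p = 0.0338) but rho = -0.26 (permutation p = 0.112, adjusted p = 0.190), and r = -0.18 without them, so its relation rests on those arrays. With actin as a covariate the Slc6a11 difference between 129 KO and C57 KO was -0.53 (limma adjusted p = 0.0149).

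**Figure D3:**
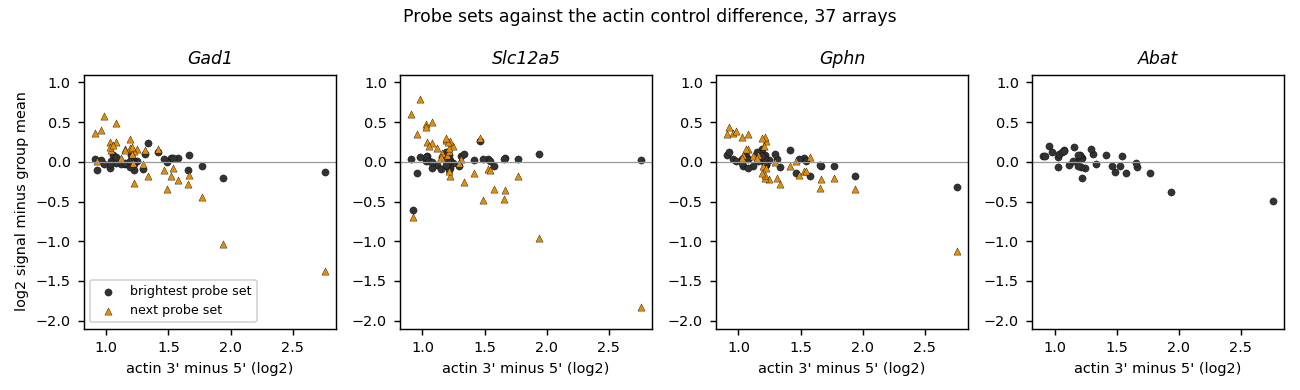
Log2 signal minus its group mean against the 3' minus 5' actin difference (log2), 37 arrays, for the brightest (black circles) and next (orange triangles) probe sets of Gad1, Slc12a5 and Gphn and the brightest of Abat. The next probe sets fall as the actin difference grows, and the array at the far right is 129 WT array 73 (2.76). For Gad1 r is -0.92 with group means removed from the actin difference too, which is plotted here as measured.

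The dimmer Gad2 probe set separated the 2 array sets in 3 of the 4 groups, and in C57 KO they overlapped (4.92 to 6.51 in set 2, against 4.81 to 5.18 in set 1). Its mean was 6.07 in set 2 and 4.90 in set 1, and the difference within groups was 1.15. Of the 18 set 2 arrays, 17 lay above all 19 set 1 arrays, and the exception was C57 KO array 10 at 4.92. On the brightest Gad2 probe set the means were 9.40 in set 2 and 9.38 in set 1, a difference within groups of 0.02. Since nearly all arrays fall into separate clusters by set on the dimmer probe set, its relation to actin is given within sets, at r = -0.81 in set 1 (n = 19, permutation p = 0.00015) and r = -0.85 in set 2 (n = 18, permutation p = 7e-05). The second Gphn probe set was 0.36 higher in set 2, with 14 of 18 arrays above all of set 1, and its brightest was at -0.02. The sets hold all groups in near equal numbers, and Slc6a11 was 0.21 higher in set 2. With array set as a block its difference between 129 KO and C57 KO was -0.53 (limma adjusted p = 0.0200).

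**Figure D4:**
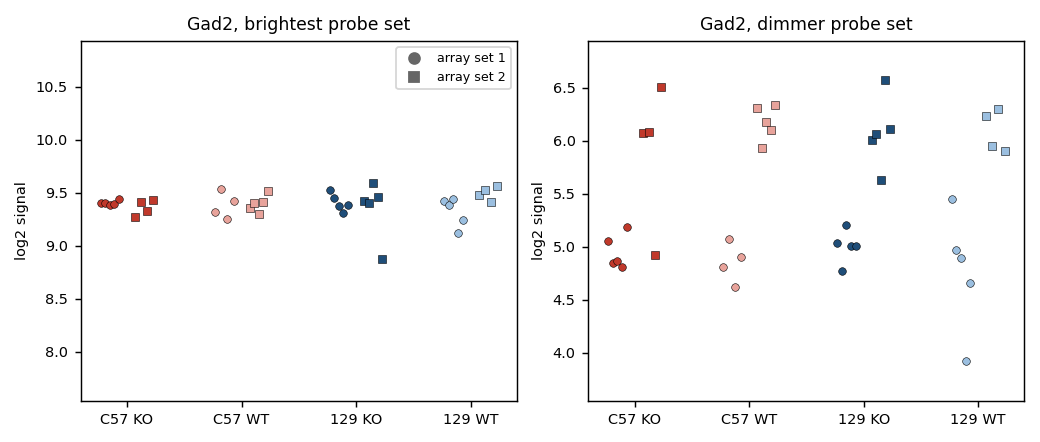
Log2 signal of the brightest (left) and dimmer (right) Gad2 probe sets in each group, with set 1 arrays as circles and set 2 arrays as squares. On the dimmer probe set 17 of 18 squares lie above every circle (means 6.07 and 4.90), while on the brightest the sets overlap (9.40 and 9.38).

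Pairs of members were compared across the 37 arrays with group means removed, over 21 pairs. By Pearson's r 5 pairs passed the adjustment, and by Spearman's rho 0 did. Abat and Gphn had r = 0.66 (permutation p = 6e-05, adjusted p = 0.00126) and rho = 0.45 (permutation p = 0.0063, adjusted p = 0.0698). Without the 2 farthest arrays r was 0.36. Over all 37 arrays, with actin regressed out, it was 0.25 (adjusted p = 0.265). Within sets 1 and 2 it was 0.72 and 0.64. Gad1 and Gad2, the decarboxylase pair, had r = 0.47 (permutation p = 0.00568, adjusted p = 0.0414) and rho = 0.41 (permutation p = 0.0126, adjusted p = 0.0698), with 0.46 without the 2 farthest arrays and 0.53 and 0.57 within the sets. Gad2 and Slc6a11 had r = 0.43 (permutation p = 0.00986, adjusted p = 0.0414) and rho = 0.44 (permutation p = 0.00728, adjusted p = 0.0698), with 0.28 without the 2 farthest and 0.60 and 0.35 within the sets.

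Slc32a1 and Slc12a5 had r = 0.45 (permutation p = 0.00648, adjusted p = 0.0414) and rho = 0.41 (permutation p = 0.0133, adjusted p = 0.0698), with 0.40 without the 2 farthest arrays and 0.33 and 0.49 within the sets. With the mean of each gene's probe sets this pair turned to -0.29. Gad2 and Slc12a5 had r = 0.57 (permutation p = 0.00880, adjusted p = 0.0414) but rho = 0.00 (permutation p = 0.995, adjusted p = 0.995). Without the 2 farthest arrays r was 0.10, and within the sets it was -0.03 and 0.77, so the relation rests on those arrays, 129 KO array 59 among them.

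Of 70 relations between members and marker lists, 5 passed by Pearson's r, the one of Slc32a1 with striatal markers among them, and 2 by Spearman's rho, those of Abat and Gphn with 7 microglia markers. For Abat r was 0.64 (permutation p = 5e-05, adjusted p = 0.00175 over 70 relations) and rho 0.58 (permutation p = 0.0002, adjusted p = 0.00700), and r was 0.54 without the 2 farthest arrays and 0.72 and 0.55 within the sets. For Gphn r was 0.64 (permutation p = 4e-05, adjusted p = 0.00175) and rho 0.63 (permutation p = 2e-05, adjusted p = 0.00140), with 0.48 without the 2 farthest and 0.67 and 0.69 within the sets. The microglia markers fell with the actin difference too, at r = -0.59 (permutation p = 0.00012, adjusted p = 0.00120 over 10 lists) and rho = -0.53 (permutation p = 0.00086, adjusted p = 0.00860), with r = -0.37 without arrays 73 and 10 and -0.56 and -0.60 within the sets. With actin regressed out, an alternative chosen after the data were seen, r with the microglia markers was 0.35 for Abat (adjusted p = 0.157) and 0.40 for Gphn (adjusted p = 0.111), so neither passed. Slc12a5 and 10 excitatory cortical neuron markers had r = 0.61 (permutation p = 0.0011, adjusted p = 0.0257) and rho = 0.32 (permutation p = 0.0514, adjusted p = 0.285), but r was 0.30 without the 2 farthest arrays and -0.09 and 0.84 within the sets, so it was near 0 in set 1. Gad2 and 11 thalamus and hypothalamus markers had r = -0.49 (permutation p = 0.00236, adjusted p = 0.0330) and rho = -0.39 (permutation p = 0.0184, adjusted p = 0.161), with -0.52 without the 2 farthest arrays and -0.71 and -0.35 within the sets.

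**Figure D5:**
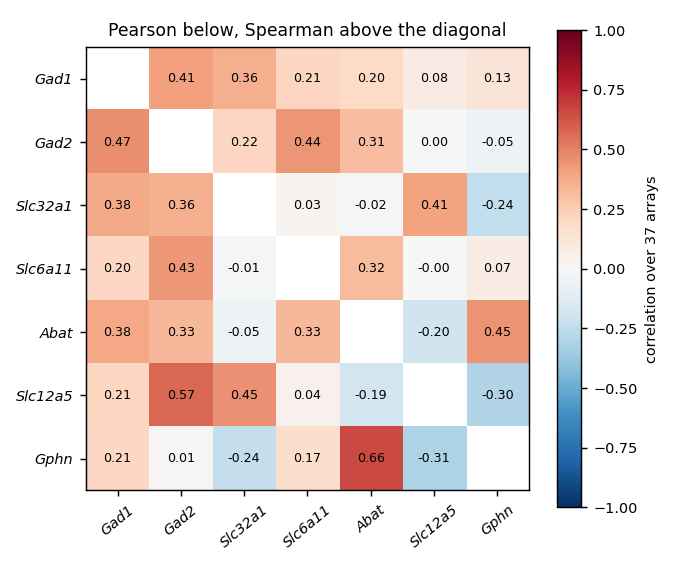
Correlations between the 7 members over 37 arrays after removal of group means, with Pearson's r below and Spearman's rho above the diagonal. The strongest Pearson value is 0.66 for Abat and Gphn (rho 0.45), and Gad2 and Slc12a5 have 0.57 below and 0.00 above.

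The 3 tested genes most like each member over the 37 arrays, by r after removal of group means, were chosen from these values and have no test. For Gad1 they were Osbpl8 (0.71), Kdm7a (0.69) and Rtn4 (0.69), with 0.60 to 0.65 without the 2 farthest arrays. For Gad2 they were Akirin2 (0.80), Sesn3 (0.77) and Stox2 (0.76), with 0.42 to 0.55 without the 2 farthest arrays. For Slc32a1 they were Gsg1l (0.79), Ankrd63 (0.76) and Vegfb (0.75), with 0.68 to 0.72 without the 2 farthest arrays. For Slc6a11 they were Marf1 (0.69), Washc4 (0.68) and Islr2 (0.62), with 0.55 to 0.63 without the 2 farthest arrays. For Abat they were Chn1 (0.88), Ola1 (0.86) and Laptm4a (0.86), with 0.66 to 0.74 without the 2 farthest arrays. For Slc12a5 they were Rab6b (0.95), Dnm1 (0.91) and Syngr1 (0.89), with 0.58 to 0.77 without the 2 farthest arrays. For Gphn they were Idh3a (0.85), Adss (0.84) and Ppp2r2b (0.82), with 0.67 to 0.73 without the 2 farthest arrays. Chn1 and Idh3a followed the actin difference at -0.93 and -0.85.

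Other genes listed with GABA metabolism and transport showed 0 called in KO minus WT of either strain. Over all genes 0.107% were called in C57 and 0.00765% in 129. The list also held 2 vesicular transporters of glutamate rather than GABA, Slc17a7 (0.06 in C57, 0.07 in 129) and Slc17a6 (0.06 and 0.01). Of 17 listed, 14 were measured and 12 tested, with a median difference of 0.04 in C57 and 0.01 in 129. Aldh5a1, which follows Abat in GABA breakdown, differed by 0.08 in C57 and -0.04 in 129. Slc6a13, the transporter GAT-2, differed by -0.06 in C57 and 0.01 in 129. Glul, the astrocytic glutamine synthetase, differed by 0.05 in C57 and -0.04 in 129. Between WT groups, where 2.06% of all genes were called, 1 of 12 was, the glutamine transporter Slc38a5, at -0.47 (129 minus C57, SE 0.12, limma adjusted p = 0.0296). Between KO groups 0 of 12 were called, where 3.06% of all genes were.

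Chloride balance genes and scaffold partners had 0 called in KO minus WT of either strain. Over all genes 0.107% were called in C57 and 0.00765% in 129, so lists of this size would seldom hold a called gene. Of 20 listed for chloride balance 18 were tested, with 0 called in any of the 6 contrasts and a median of 0.01 in C57 and -0.02 in 129. In the other contrasts 0.0229% of all genes were called over both strains and 0.0153% for the difference of the KO effects. Between WT groups it was 2.06% and between KO groups 3.06%. Slc12a2, the chloride importer NKCC1 that opposes KCC2, differed by 0.00 in C57 and -0.03 in 129. The kinase gene Wnk3, which acts on both cotransporters, differed by 0.13 in C57 and -0.04 in 129. Of 24 listed with the inhibitory synapse scaffold 21 were tested, with a median of 0.06 in C57 and -0.02 in 129. Nlgn2, the neuroligin of inhibitory synapses, differed by 0.11 in C57 and -0.07 in 129. Profilin Pfn1 was the 1 of 21 called between WT groups, where 2.06% of all genes were (0.63 higher in 129, SE 0.15, limma adjusted p = 0.0123).

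Markers of inhibitory interneurons were read beside Gad1, Gad2 and Slc32a1, which those cells express. Of 23 listed 20 were tested. The count called was 0 in C57 (0.107% of all genes), 0 in 129 (0.00765%), 0 between WT groups (2.06%) and 1 between KO groups (3.06%). In C57 4 of 20 had an unadjusted p under 0.05 (6.37% of all genes), and in 129 0 did (2.13%). The median was -0.02 in C57 and -0.01 in 129. The 4 were Htr3a (0.27), calretinin, Calb2 (0.24), and the transcription factor gene Lhx6 (0.21), each higher in KO, and the cannabinoid receptor gene Cnr1 (-0.21), with limma adjusted p from 0.475 to 0.565. They were named after their values were seen. Somatostatin, Sst, differed by 0.06 in C57 and 0.09 in 129, and parvalbumin, Pvalb, by -0.05 in C57 and -0.19 in 129. Htr3a, the serotonin-gated channel of a class of interneurons, was lower in 129 KO than in C57 KO, by -0.40 (SE 0.09, limma adjusted p = 0.0111). The mean signal of the 20 ranged from 7.24 to 7.47 in C57 KO, against 7.26 to 7.49 in C57 WT, and from 7.30 to 7.41 in 129 KO, against 7.34 to 7.40 in 129 WT. Across the 37 arrays, with group means removed, this mean did not pass with any of the 3 genes. Its r was 0.24 with Gad1 (permutation adjusted p = 0.439), -0.21 with Gad2 (0.487) and -0.07 with Slc32a1 (0.882).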

How the data were processed

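Total RNA from temporal lobes was hybridized to 37 1-colour Affymetrix arrays, per the labels' protocols, which do not say how many lobes or animals an array holds. The authors deposited log2 probe set signals, already normalized between arrays. MAS5 and GCRMA are both named in the submitters' processing notes, with no role given. Array medians lay between 4.30 and 4.36 and values between 1.34 and 13.76, and they were used without further scaling. Of 45101 probe sets, 64 were controls, 34945 had 1 symbol, 932 several and 9160 none, and only those with 1 symbol were used, named by GEO's platform annotation updated through Entrez identifiers (99.4% matched). Each gene was read on its brightest probe set by mean signal. It was tested when a group mean reached 3.60, the 40th percentile of probe set means. The number of arrays limits the precision.

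Groups came from sample titles. Means of the 4 groups were fitted jointly with limma 3.58.1 (R 4.3.3) to 13078 genes on 37 arrays, with 2-sided Benjamini-Hochberg adjusted p under 0.05 as a call. Single members were also compared by exact permutation tests, and relations across arrays by 100000 permutations (Python 3.11.15, NumPy 2.4.6, SciPy 1.17.1, pandas 2.3.3, matplotlib 3.10.9). The fit was also run on simulated data, with independent normal values for each gene. Those held no array sets, RNA quality differences or outlying arrays, so the run cannot show how the fit handles these. The actin difference is the log2 signal of the 3' control minus the 5' control. Alternatives were other filters, scalings, probe set rules, variance models, array sets, actin as a covariate and each array left out, and 4 more were added after the data were seen. Genes that are no members were named where called in a list, as defining members of a list, or as the most alike in the arrays. The members and lists were chosen with earlier results of these data known. Some genes of the lists are not analysed here.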

Additional observations from a re-analysis of the deposited data

Results flagged for a closer look

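A gap test for single values was run on 17 probe sets in 4 groups, and 15 of the 68 sets of values held an array far from the rest, where chance flags about 1 in 20. In each case the gap from the extreme array to its neighbour was a large share of the group's range. C57 KO array 10 was the lowest of its group on Gad1 (10.64, next 10.82), Abat (9.20, next 9.51) and the second probe sets of Gad1 (7.74, next 8.59) and Slc12a5 (5.78, next 6.60). 129 WT array 73 was the lowest on Abat (9.03, next 9.38), Gphn (7.75, next 8.01), Slc6a11 (4.37, next 4.99) and the second probe sets of Gphn (6.37, next 7.30) and Slc12a5 (4.96, next 6.61). These arrays had the largest actin differences, 1.94 and 2.76. 129 KO array 59 was the lowest on Gad2 (8.88, next 9.31), Slc12a5 (10.64, next 11.20) and the third probe set of Gphn (4.80, next 5.37), with an actin difference of 0.92. 129 KO array 50 was the highest on Gad1 (11.10, next 10.91), 129 KO array 52 on the third probe set of Slc32a1 (5.58, next 4.63) and C57 WT array 37 on Slc6a11 (6.11, next 5.43). Without arrays 10, 59 and 73 together, Slc6a11 differed by -0.49 between 129 KO and C57 KO (limma adjusted p = 0.0388) and by 0.46 between KO and WT in C57 (adjusted p = 0.317).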

How the results depend on the processing

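The call of Slc6a11 between 129 KO and C57 KO, and counts of called genes, were the results past a threshold. Slc6a11 kept its call under 12 of 14 alternatives other than single arrays, with adjusted p up to 0.0484 in limma, and lost it within set 1 (-0.55, adjusted p = 0.0730) and within set 2 (-0.48, adjusted p = 0.539). With single arrays left out the difference lay between -0.57 and -0.42 and the call was lost for 7 of 37. Slc6a11 in C57 lay between 0.28 and 0.55 under all alternatives, with adjusted p from 0.115 to 0.923. Of the 30 member results, those that changed sign had been within 0.13 of 0 and had an adjusted p of at least 0.723 after it, and the cause was not tested. With quantile normalization the signs that changed were, for 129 WT minus C57 WT Gad1 0.0074. With median centring the signs that changed were, for KO minus WT in C57 Gad2 0.0054, and for KO minus WT in 129 Gphn 0.0014. With the mean of probe sets the signs that changed were, for KO minus WT in C57 Slc12a5 -0.033, and for KO minus WT in 129 Gad1 0.051, Gad2 0.078, Slc32a1 0.046, Slc12a5 0.049, Gphn 0.013, and for 129 WT minus C57 WT Gad2 -0.11, Slc12a5 -0.020, and for 129 KO minus C57 KO Gad2 0.081, Abat 0.017, Slc12a5 0.062. With array weights the signs that changed were, for KO minus WT in C57 Gad2 0.0019, and for KO minus WT in 129 Abat -0.047, Slc12a5 0.016, and for 129 WT minus C57 WT Gad1 0.0099, Slc6a11 0.018, and for 129 KO minus C57 KO Gad2 0.036. Within set 1 the signs that changed were, for KO minus WT in C57 Gad2 0.025, Gphn 0.013, and for KO minus WT in 129 Gad2 0.085, Slc12a5 0.039, Gphn 0.049, and for 129 WT minus C57 WT Gad2 -0.057, Slc12a5 -0.024, and for 129 KO minus C57 KO Gad1 -0.032, Gad2 0.0024, Slc32a1 -0.021, Slc12a5 0.0046. Within set 2 the signs that changed were, for KO minus WT in 129 Slc6a11 -0.12, Abat -0.11, and for 129 WT minus C57 WT Gad1 0.044, Slc32a1 0.0053, Slc6a11 0.048, Gphn 0.0010, and for 129 KO minus C57 KO Gphn 0.020. With actin as a covariate the signs that changed were, for KO minus WT in C57 Gad2 0.00075, and for KO minus WT in 129 Abat -0.033, and for 129 WT minus C57 WT Gad1 0.0026. Without arrays 10, 59 and 73 the signs that changed were, for KO minus WT in C57 Gad2 0.0031, and for KO minus WT in 129 Gad2 0.0015, Abat -0.050, Slc12a5 0.049, and for 129 WT minus C57 WT Gad1 0.0085, and for 129 KO minus C57 KO Gad1 -0.0015, Gad2 0.042, Slc12a5 0.037. Single arrays left out gave ranges across 0, for KO minus WT in C57 Gad2 -0.022 to 0.014, and for KO minus WT in 129 Gphn -0.045 to 0.013, Gad2 -0.055 to 0.036, Slc12a5 -0.052 to 0.045, Slc6a11 -0.035 to 0.13, Abat -0.042 to 0.037, and for 129 WT minus C57 WT Gad1 -0.019 to 0.0085, Gad2 -0.011 to 0.044, Slc32a1 -0.040 to 0.014, and for 129 KO minus C57 KO Gad2 -0.031 to 0.049, Gad1 -0.013 to 0.029, Slc12a5 -0.072 to 0.025. Genes called in C57, 14 in the main setting, were 7 with only the groups compared, 4 within set 1, 5 within set 2 and 6 to 17 with single arrays left out. Over both strains 3 became 5 with quantile normalization, 10 with array weights, 1 within set 2 and 3 to 5 with single arrays left out. For the difference of the KO effects 2 became 1 within set 1, 0 within set 2 and 2 to 4 with single arrays. Between WT groups 269 became 678 with array weights, 59 within set 1 and 117 within set 2, and between KO groups 400 became 257 with only the groups compared, 256 within set 1 and 28 within set 2, where fewer arrays entered each fit. Pairs passing by Pearson's r, 5 of 21, were 2 with quantile normalization. Slc32a1 and Slc12a5 turned to r = -0.29 with the mean of probe sets. Other pairs shifted as well under that rule. Gad1 went from 0.21 to 0.81 with Slc12a5 and from 0.21 to 0.79 with Gphn. Gphn went from 0.01 to 0.73 with Gad2 and from -0.31 to 0.75 with Slc12a5, while with Abat it fell from 0.66 to 0.36. Slc32a1 went from -0.05 to 0.51 with Abat and from 0.38 to 0.54 with Gad1 once actin was regressed out. Which pairs correlated most thus changed with the setting. With actin regressed out, the relations of Abat (r = 0.35) and Gphn (0.40) to microglia markers no longer passed. Still passing were Slc32a1 with striatal markers (0.55, permutation adjusted p = 0.0192), Slc12a5 with excitatory cortical neuron markers (0.57, 0.0360) and Gad2 with thalamus and hypothalamus markers (-0.47, 0.0482). Abat newly passed with hippocampus markers (0.54, from 0.20, permutation adjusted p = 0.0192) and striatal markers (0.52, from 0.35, 0.0296). No paired analysis was possible because the groups share no replicate numbers. Signals near the filter limit Slc38a5 and the dim probe sets.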
